A study of Homo sapiens with 24 samples.

Results

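The Rab GTPases were followed as a gene family in 2 inflammatory breast cancer cell lines, SUM149PT and SUM190PT, treated with the histone deacetylase inhibitor CG-1521, with 17β-estradiol, or with both. A gene was counted as a Rab gene when its symbol in the probe annotation was RAB followed by digits and an optional letter, and when a probe set carried that symbol alone. Of 18417 genes measured this way, 60 were Rab genes. Where a gene had several such probe sets, the brightest of them on average was used, which concerned RAB13, RAB44 and RAB7A.

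Total RNA was hybridised to 24 Affymetrix gene arrays, with 3 arrays from independent experiments in each of 8 groups. In each line, cells received vehicle (ethanol and DMSO), 10 nM estradiol, CG-1521, or estradiol together with CG-1521, and RNA was taken after 48 h. The dose of CG-1521 was 7.5 µM in SUM149PT and 5 µM in SUM190PT. Both lines are labelled as estrogen receptor negative and as carrying mutant p53. SUM149PT was treated in a medium with fetal bovine serum, whereas SUM190PT was moved to a serum-free medium with insulin, transferrin and other supplements before treatment. Line, medium and dose therefore changed together and cannot be told apart in any comparison between the lines, and each line stands for a single tumour. Array values are log2 expression levels. They are compared between groups for the same gene and never between genes, since different probe sets do not share a scale.

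Rab proteins are small GTPases that sit on the cytosolic face of membranes and give each compartment its identity. Guanine nucleotide exchange factors (GEFs) load them with GTP, effectors such as tethers and motor adaptors bind the loaded form, and GTPase-activating proteins (GAPs) end the cycle. A prenyl group added by Rab geranylgeranyl transferase anchors them in the membrane, and GDP dissociation inhibitors take them out again. In epithelial cells they direct secretion, the recycling of receptors and adhesion proteins, and the delivery of cargo to lysosomes.

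The 60 genes were grouped by their best known site of action. There were 16 genes of endoplasmic reticulum to Golgi and Golgi traffic, 4 of constitutive and polarized exocytosis, 8 of regulated secretion, 7 of early endosomes, 8 of recycling endosomes, 6 of late endosomes, lysosomes and autophagy, 3 of melanosomes and lysosome-related organelles, and 3 of the RAB40 subfamily, which recruits ubiquitin ligases. A further 5 were placed in no group: RAB23, RAB28, RAB42, RAB44 and RAB1C, which RefSeq lists as a pseudogene and whose signal may include RAB1A or RAB1B transcript.

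RefSeq promoter entries (GRCh38.p14) existed for 46 of the 60 genes, and the 250 bases before the annotated start are shown for 4 genes that moved the same way in both lines under CG-1521. RAB1B (chr11:66268389-66268638, plus strand) and RAB4A (chr1:229270861-229271110, plus strand) fell in both lines. RAB18 (chr10:27504054-27504303, plus strand) and RAB5A (chr3:19946847-19947096, plus strand) rose in both lines. Capitals mark matches to the GC box GGGCGG or to the E-box CACGTG on either strand.
RAB1B: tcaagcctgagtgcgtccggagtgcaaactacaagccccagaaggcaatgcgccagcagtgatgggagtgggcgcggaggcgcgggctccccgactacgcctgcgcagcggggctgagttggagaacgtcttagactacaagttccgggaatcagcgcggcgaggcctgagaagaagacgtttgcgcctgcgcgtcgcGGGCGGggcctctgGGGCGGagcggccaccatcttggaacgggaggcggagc
RAB4A: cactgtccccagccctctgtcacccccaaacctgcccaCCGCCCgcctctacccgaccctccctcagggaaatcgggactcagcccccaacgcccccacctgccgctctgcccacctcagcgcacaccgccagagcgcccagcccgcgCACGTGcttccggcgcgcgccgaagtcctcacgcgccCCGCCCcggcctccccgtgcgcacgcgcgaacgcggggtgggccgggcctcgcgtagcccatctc
RAB18: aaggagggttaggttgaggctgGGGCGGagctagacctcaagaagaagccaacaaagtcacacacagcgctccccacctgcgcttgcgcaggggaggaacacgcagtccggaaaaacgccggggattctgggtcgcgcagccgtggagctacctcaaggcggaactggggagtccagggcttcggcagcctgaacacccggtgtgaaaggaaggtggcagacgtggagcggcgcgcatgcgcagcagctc
RAB5A: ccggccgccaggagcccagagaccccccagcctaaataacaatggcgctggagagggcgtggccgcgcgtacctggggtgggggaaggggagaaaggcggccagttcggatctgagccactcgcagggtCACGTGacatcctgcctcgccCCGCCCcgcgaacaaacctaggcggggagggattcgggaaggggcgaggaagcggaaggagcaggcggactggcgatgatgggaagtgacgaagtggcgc

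Each of the 4 promoters held at least 1 GC box, and RAB4A and RAB5A also held an E-box. None of the 4 had a CCAAT box (CCAAT) or a TATA box (TATAAA) in this window on either strand. Over the family, 37 of 46 promoters (80.4%) held a GC box, against 57.5% of the 14239 promoters of genes measured on the array and 42.6% of all 34788 promoters in the table. An E-box stood in 5 of 46 Rab promoters (10.9%, against 7.86% of measured genes), a CCAAT box in 12 (26.1%, against 34.4%) and a TATA box in 2 (4.35%, against 8.6%). Matches were counted for each motif on its own, and a match describes the letters only.

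The labelled cell type was carried by the arrays. The median of 6 epithelial markers was between 11.09 and 11.95 on every array, and the medians of fibroblast, leukocyte and endothelial markers lay between 4.13 and 5.32. Single genes of these lists lay higher. In SUM149PT and SUM190PT vehicle, CD68 averaged 9.75 and 6.92, FAP 8.09 and 3.46, and COL1A1 7.03 and 7.08. Luminal markers had array medians of 6.75 to 7.05 in SUM149PT and 9.97 to 10.75 in SUM190PT, and basal markers ran the other way, with 9.07 to 9.52 against 5.49 to 7.13. The luminal marker AGR2 averaged 4.43 in SUM149PT vehicle and 8.31 with CG-1521. The luminal list did not follow AGR2 as a set, and its array medians were not higher with the drug. In the same comparison GATA3 and ERBB2 averaged lower with CG-1521, XBP1 averaged higher, and FOXA1 and SPDEF were nearly unchanged. The third vehicle array and the third estradiol array of SUM190PT stood apart: the median of 16 DNA replication genes was lower there than on the other arrays of the group, by -1.65 and -1.80 on the log2 scale. The median Rab gene was 0.12 and 0.11 higher on these arrays. The results for SUM190PT were recomputed without both, and the calls that were lost are given where they arise.

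**Figure D1:**
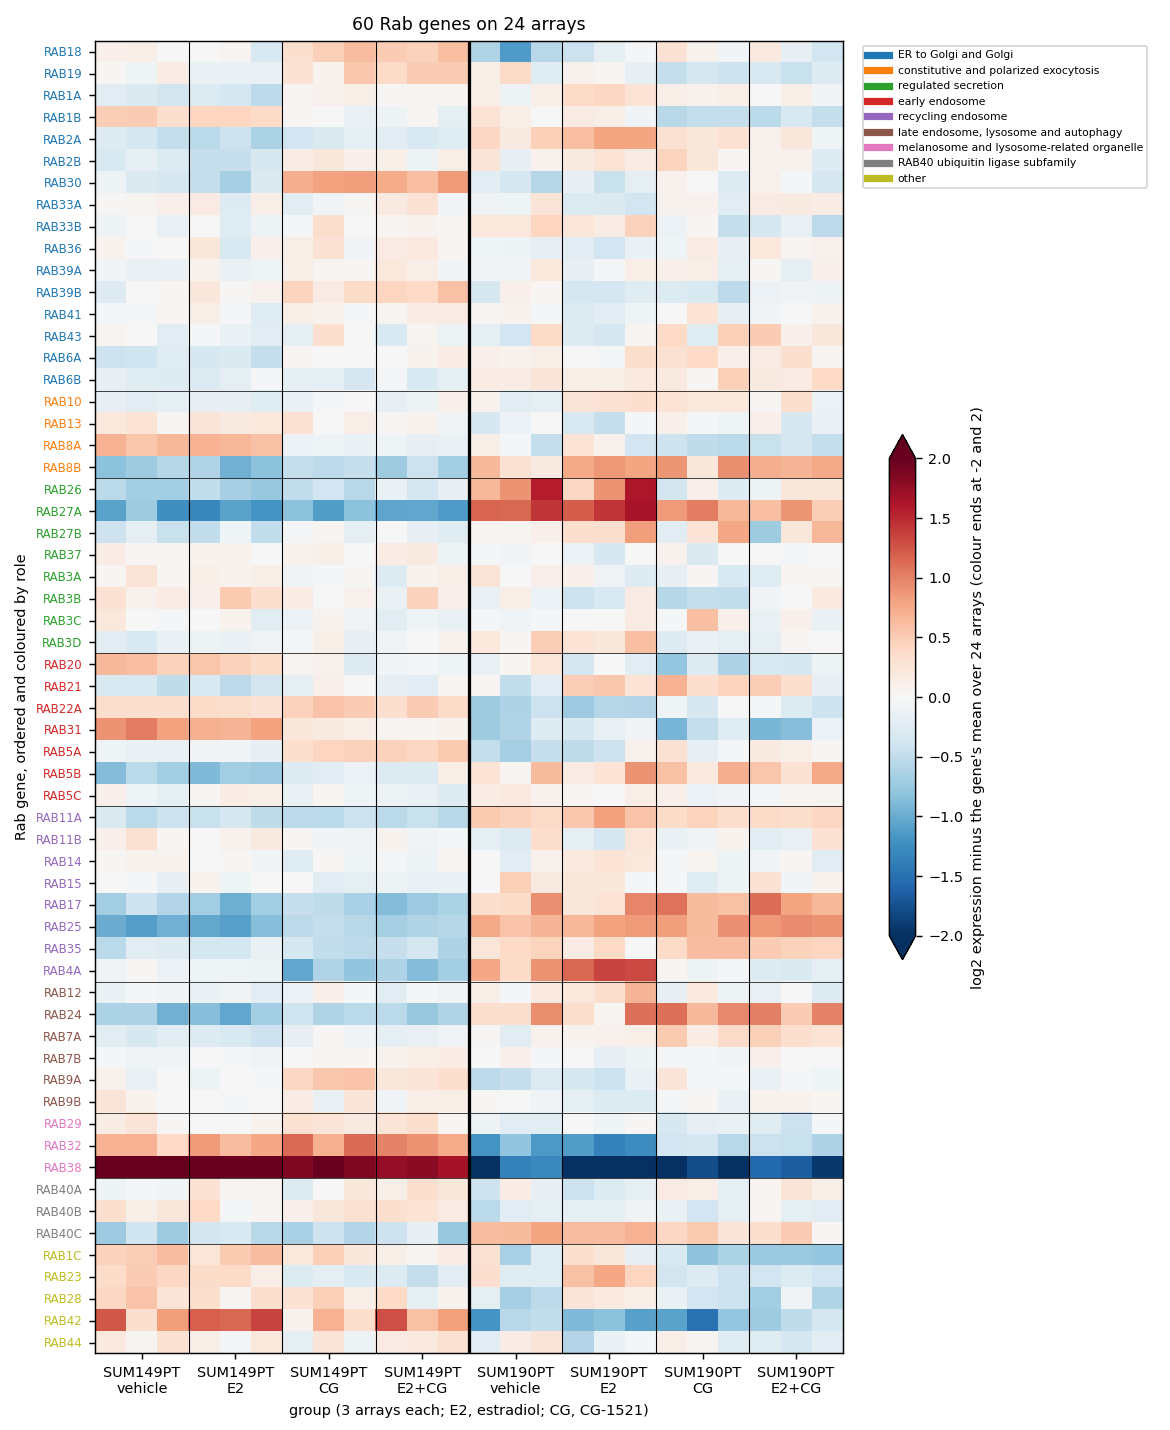
Expression of the 60 Rab genes on the 24 arrays. Each row is a gene, ordered and coloured by role, each column is an array, and colour is the log2 level minus the gene's own mean over the 24 arrays, with the colour scale ending at -2 and 2. RAB38, RAB32, RAB31 and RAB42 are high in the SUM149PT columns, RAB27A, RAB25, RAB26 and RAB17 in the SUM190PT columns, and RAB30 is high in the SUM149PT columns with CG-1521.

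The first comparison asked how the family differed between the lines before any drug. Of the 60 Rab genes, 35 differed between the vehicle groups (limma, Benjamini-Hochberg adjusted p below 0.05 over all 18417 genes): 17 were higher in SUM149PT and 18 in SUM190PT. Over all genes 46.7% passed the same test, with 24.5% higher in SUM149PT and 22.1% higher in SUM190PT. At least a 2-fold difference was seen in 12 Rab genes, where 16.4% of all genes reached it. The median difference was -0.01 both over the Rab genes and over all genes, so that the family as a whole was shifted to neither line.

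RAB38, which with RAB32 delivers enzymes to melanosomes and related organelles, differed by the largest amount among the 60 genes. Its log2 level was 8.44, 8.43 and 8.40 on the SUM149PT vehicle arrays and 3.94, 4.97 and 5.03 on those of SUM190PT. The groups lay far apart, a difference of 3.77 ± 0.211 (SE, n = 3 per group; adjusted p = 8.39e-13). The SUM190PT values lie about where the medians of the fibroblast, leukocyte and endothelial markers lie, so signal above background is not shown there, and no fold is given. RAB32 followed with 7.25, 7.25 and 6.96 against 5.36, 5.77 and 5.42, a difference of 1.64 ± 0.129 (3.11-fold; adjusted p = 2.81e-10). RAB29, the remaining gene of the group, was 0.32 higher (adjusted p = 0.00976), so that 3 of 3 genes of lysosome-related organelles were higher in SUM149PT. Over all genes 24.5% were higher there. The RAB29 call was lost when the second SUM149PT vehicle array was left out (adjusted p = 0.0587).

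The regulated secretion genes that passed the test lay on the other side. RAB27A, which docks secretory granules and exosome-bearing endosomes at the plasma membrane, read 6.89, 7.26 and 6.74 in SUM149PT and 9.13, 9.12 and 9.40 in SUM190PT, a difference of -2.26 ± 0.142 (4.77-fold lower in SUM149PT; adjusted p = 6.17e-12). RAB26, linked to secretory granule maturation, read 6.56, 6.41 and 6.42 against 7.76, 8.0 and 8.66. Every SUM190PT array was above every SUM149PT array, a difference of -1.68 ± 0.219 (adjusted p = 8.46e-07). The highest RAB26 value was on the third vehicle array, and without the third SUM190PT vehicle and estradiol arrays the difference was -1.42 (adjusted p = 4.72e-08). RAB3D was 0.47 lower in SUM149PT on the log2 scale, with a log2 level of 7.62 against 8.09 (adjusted p = 0.00162). Of the 8 genes of this group, 3 were lower and none was higher in SUM149PT, with a group median of -0.21. Over all genes 22.1% were lower there. RAB27B, RAB37, RAB3A, RAB3B and RAB3C did not pass the test, with differences from -0.41 to 0.22.

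Of the 8 recycling endosome genes, 5 were lower in SUM149PT and none was higher, when 22.1% of all genes were lower. The median difference of the group was -0.73. RAB25, the epithelial relative of RAB11 that returns integrins to the surface, read 8.63, 8.52 and 8.65 in SUM149PT and 10.38, 10.19 and 10.30 in SUM190PT. The arrays did not overlap, and the difference was -1.69 ± 0.0889 (3.22-fold lower; adjusted p = 2.88e-13). RAB17, an epithelial Rab of apical recycling, differed by -1.10 ± 0.182, RAB11A by -0.87 ± 0.0878, RAB4A, which drives fast recycling, by -0.75 ± 0.118, and RAB35 by -0.70 ± 0.113. RAB11B, RAB14 and RAB15 did not pass the test. Within the pair of near relatives, RAB11A was lower in SUM149PT while RAB11B read 9.15, 9.35 and 9.08 against 8.87, 8.78 and 9.39, groups that overlapped.

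Early endosome genes were mixed. RAB31, which sorts receptors between the Golgi and endosomes, was 1.44 ± 0.171 higher in SUM149PT (9.16, 9.28 and 9.06 against 7.54, 7.66 and 7.99; adjusted p = 2.21e-07). RAB22A was 0.92 ± 0.101 higher, RAB20 0.53 and RAB5A 0.42. RAB5B, a second isoform of the main early endosome regulator, was lower by -1.01 ± 0.183, with 7.34, 7.66 and 7.52 against 8.48, 8.24 and 8.84. The RAB5 isoforms thus differed in opposite directions between the lines, and RAB5C did not pass the test.

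Opposite isoforms occurred in the exocytic group as well. RAB8A, which carries vesicles to the plasma membrane and the cilium, was 0.76 ± 0.133 higher in SUM149PT (adjusted p = 4.28e-05). Its relative RAB8B was lower by -1.08 ± 0.147 (5.95, 6.06 and 6.19 against 7.42, 7.07 and 6.94; adjusted p = 1.62e-06). Among Golgi genes, RAB18, of the endoplasmic reticulum and lipid droplets, was 0.85 higher and RAB1B 0.31 higher. RAB1A was lower by -0.34, and RAB2A, RAB6A, RAB6B, RAB33B and RAB2B were lower by -0.71 to -0.31. RAB24, an atypical Rab of autophagy, was lower by -1.26 ± 0.208, and RAB40C by -1.29 ± 0.137, while RAB40B was 0.53 higher.

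RAB42, a little studied member, was 1.55 ± 0.227 higher in SUM149PT, with 6.21, 5.29 and 5.81 against 3.78, 4.41 and 4.47. As for RAB38, signal above background is not shown for RAB42 in SUM190PT. RAB28, RAB1C and RAB23 were higher as well, by 0.87, 0.72 and 0.47. RAB42, RAB28, RAB4A, RAB20 and RAB6B belong to the 19 Rab genes whose mean was below that of the median gene on these arrays, where differences in log2 level tend to be understated.

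Of the 35 differences, 30 passed the test under every alternative that was run, including each array left out in turn. The other 5 were RAB13, RAB1B, RAB29, RAB2B and RAB33B, of which RAB2B (adjusted p = 0.0795) and RAB33B (0.0802) were lost without the third SUM190PT vehicle and estradiol arrays. Luminal and basal markers moved with the lines over similar or larger ranges, and their part in the Rab differences was not tested. In bulk RNA, fewer cells of a kind and less RNA per cell cannot be told apart.

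**Figure D2:**
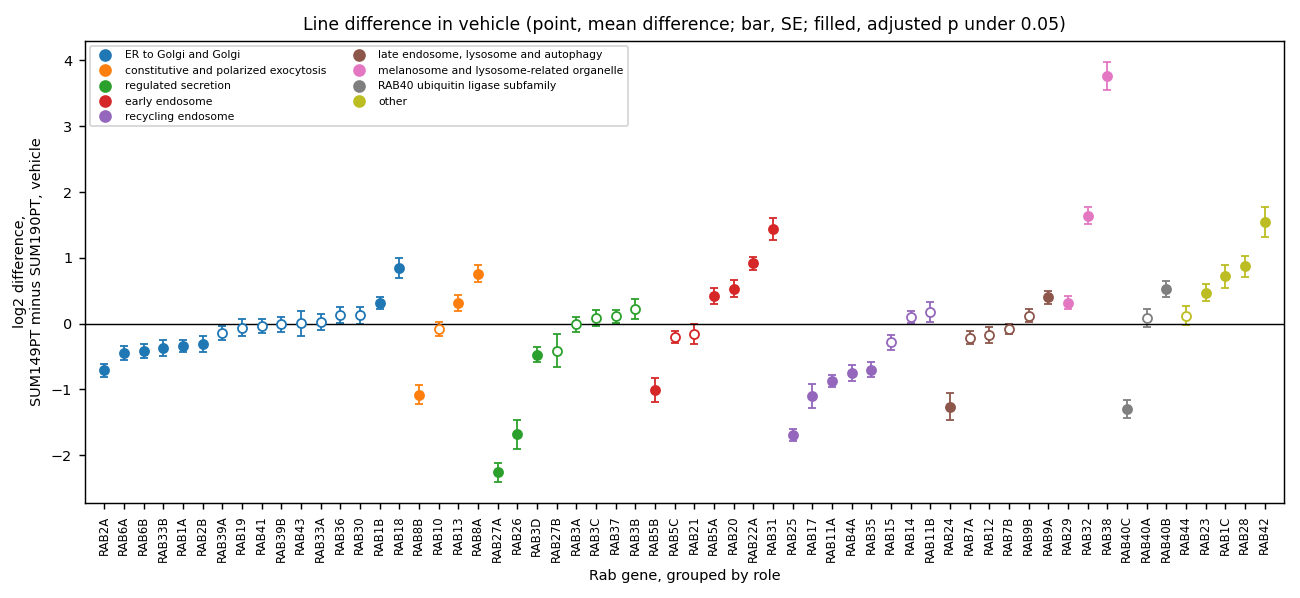
Difference between the lines in vehicle for each Rab gene. The vertical axis is the log2 difference, SUM149PT minus SUM190PT, each point is a gene coloured by role, bars are SE with n = 3 arrays per group, and filled points passed the test. RAB38 stands at 3.77 and RAB27A at -2.26, and the filled points of the recycling endosome group are all below 0.

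Under CG-1521 the lines differed in 34 Rab genes, 18 higher in SUM149PT and 16 higher in SUM190PT. Over all genes 47.6% passed, with 25% higher in SUM149PT and 22.6% higher in SUM190PT. These arrays are not those of the vehicle comparison. The same direction was called in both for 27 genes. That is 77.1% of the vehicle list and 79.4% of the CG-1521 list, against 68.7% and 67.3% over all genes. Opposite directions were called for no Rab gene and for only 253 of all 18417 genes. RAB38 differed by 4.0 ± 0.211, RAB42 by 1.48, RAB32 by 1.42, RAB27A by -1.78, RAB24 by -1.42, RAB25 by -1.31 and RAB17 by -1.30. RAB26 was called in vehicle and not under CG-1521.

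CG-1521 blocks zinc-dependent histone deacetylases. In SUM149PT it was followed by a change in 18 of 60 Rab genes, 12 up and 6 down, when 34.3% of all genes changed (14.4% up and 19.9% down). The changes were small. Only RAB30 reached 2-fold, a size reached by 4.76% of all genes, and the median absolute change over the family was 0.18. The median signed change was 0.06 over Rab genes and 0.00 over all genes.

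RAB30, a Golgi Rab, rose most in SUM149PT, from 6.26, 6.07 and 6.02 in vehicle to 7.09, 7.17 and 7.20. The groups were separated by a wide gap, an increase of 1.03 ± 0.103 (2.05-fold; adjusted p = 9e-07). Golgi genes supplied 6 of the 12 increases, out of 16 measured, when 14.4% of all genes rose. Besides RAB30 these were RAB2B (0.41), RAB39B (0.40), RAB18 (0.39), RAB1A (0.38) and RAB6A (0.36). RAB39B read 3.42, 3.68 and 3.71 in vehicle and 4.12, 3.84 and 4.04 with the drug. These values lie below the medians of the fibroblast, leukocyte and endothelial markers, so signal above background is not shown for RAB39B. RAB1B, a near identical partner of RAB1A in transport from the endoplasmic reticulum, fell in the same cells. It read 10.85, 10.87 and 10.70 in vehicle and 10.38, 10.35 and 10.21 with the drug, a change of -0.49 ± 0.083 (adjusted p = 0.000187). RAB1A went from 10.65, 10.59 and 10.52 to 10.94, 10.97 and 10.99, a change of 0.38 ± 0.0783 (adjusted p = 0.00118). The RAB1 pair therefore changed in opposite directions with no overlap of arrays on either side.

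Early endosome genes divided in the same way. RAB5A rose by 0.52 ± 0.0739, RAB5B by 0.49 ± 0.114 and RAB21, which sorts integrins, by 0.35 ± 0.101. RAB31 fell from 9.16, 9.28 and 9.06 to 8.48, 8.43 and 8.38, a change of -0.73 ± 0.0769 (adjusted p = 1.6e-06). RAB20, of endosomes and phagosomes, fell by 0.61 on the log2 scale (adjusted p = 9.04e-05). Of the recycling genes, RAB25 rose from 8.63, 8.52 and 8.65 to 9.10, 9.14 and 9.06 (0.50 ± 0.0798) and RAB4A fell from 5.07, 5.16 and 5.02 to 4.10, 4.54 and 4.35 (-0.75 ± 0.102). Signal above background is not shown for RAB4A with the drug. RAB8A fell from 9.40, 9.26 and 9.38 to 8.59, 8.62 and 8.57, the decrease with the smallest SE in this comparison (-0.76 ± 0.0719; adjusted p = 5.57e-07). RAB9A, which returns cargo from late endosomes to the Golgi, rose by 0.52, RAB32 rose by 0.40, and RAB23, a negative regulator of hedgehog signalling, fell by 0.68. None of the 8 genes of regulated secretion passed the test in SUM149PT, with changes of -0.14 to 0.30.

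Of the 18 calls in SUM149PT, 16 held with any single array left out. RAB21 was lost without the third vehicle array (adjusted p = 0.0705) and without the second CG-1521 array (0.069), and RAB32 without the third vehicle, first CG-1521 or the third CG-1521 array (0.0738 to 0.0873). The median of the 16 DNA replication genes was 9.32 to 9.40 on the vehicle arrays and 7.91 to 8.17 on the CG-1521 arrays, and its part in the Rab changes was not tested.

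In SUM190PT, at the lower dose, 15 of 60 Rab genes changed, 7 up and 8 down, when 16.6% of all genes passed. The up and down shares over all genes were 8.32% and 8.26%. RAB26 alone reached 2-fold, a size reached by 3.85% of all genes. The split moved with the scaling, to 8 up and 4 down when each array was centred on its median and to 7 up and 5 down with quantile normalization. The median absolute change was 0.27 and the median SE 0.141, against an SE of 0.0929 in SUM149PT.

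RAB26 fell most, from 7.76, 8.0 and 8.66 to 6.73, 7.20 and 6.84, a change of -1.22 ± 0.279 (2.33-fold lower; adjusted p = 0.0104). The call was lost without the first CG-1521 array (adjusted p = 0.0507), and without the third vehicle and estradiol arrays the change was -0.96 (adjusted p = 0.00388). With it fell RAB3B and RAB3D, granule Rabs, by -0.47 ± 0.148 and -0.44 ± 0.139, so that 3 of 8 genes of regulated secretion were called lower and none higher. RAB3B read 4.26, 4.54 and 4.29 in vehicle and 3.84, 3.94 and 3.92 with the drug, where signal above background is not shown. The count is not firm: RAB3B lost its call with any single array left out (adjusted p = 0.0573 to 0.175) and with median centring (0.0958) or quantile normalization (0.0607). RAB3D lost its call with median centring (adjusted p = 0.104) and without the third vehicle and estradiol arrays (-0.32; 0.0924). RAB4A fell from 5.92, 5.53 and 6.05 to 5.18, 5.04 and 5.11 (-0.73 ± 0.129; adjusted p = 0.00244). RAB1B fell from 10.64, 10.49 and 10.37 to 9.81, 9.88 and 9.88 (-0.64 ± 0.109; adjusted p = 0.00187), while RAB1A, at 10.78 to 11.01 on the vehicle arrays and 10.97 to 11.01 with the drug, did not pass the test. RAB20 fell by 0.59, RAB19 by 0.50 and RAB33B by 0.47 on the log2 scale. Without the third vehicle and estradiol arrays RAB20 (-0.49; adjusted p = 0.0633) and RAB33B (-0.40; 0.11) did not pass.

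The increases in SUM190PT were led by RAB18, which went from 8.85, 8.33 and 8.90 to 9.75, 9.53 and 9.40 (0.86 ± 0.182; 1.82-fold; adjusted p = 0.00675). Endosomal genes made up most of the others: RAB21 (0.71 ± 0.181), RAB5A (0.57 ± 0.16) and RAB22A (0.45 ± 0.128) of early endosomes, and RAB9A (0.49 ± 0.12) and RAB7A (0.39 ± 0.123) of late endosomes. RAB32 rose from 5.36, 5.77 and 5.42 to 6.18, 6.23 and 6.00 (0.62 ± 0.127). The RAB7A value came from the brighter of its probe sets. The other was dim and variable, with 4.20, 3.96 and 3.22 in vehicle and 5.35, 4.72 and 4.25 with CG-1521. The mean of both gave 0.69 (adjusted p = 0.0144), a size that leans on the dim probe set. With the brighter one, the RAB7A call was lost when only the groups compared were fitted (adjusted p = 0.117). It was also lost without some single arrays (0.0578 to 0.18).

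Only RAB18, RAB1B, RAB32 and RAB4A kept their call with every single array left out. The count of Rab genes called was 6 without the second vehicle array, 4 without the first CG-1521 array and 7 without the third CG-1521 array, and 10.2%, 8.51% and 11.3% of all genes were called in the same fits. Without the third vehicle and estradiol arrays it was 14, with 8 up and 6 down. On the SUM190PT vehicle arrays the median of the DNA replication genes ran from 7.57 to 9.39 and on the CG-1521 arrays from 7.58 to 8.20.

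The lines shared 8 of these changes. RAB18, RAB21, RAB32, RAB5A and RAB9A rose in both and RAB1B, RAB20 and RAB4A fell in both. The 8 genes are 44.4% of the SUM149PT list and 53.3% of the SUM190PT list. Over all genes the shared calls made up 20.3% and 42.1%. None of the 60 Rab genes was called in opposite directions, and only 328 of all 18417 genes were, so the absence is not particular to the family. The comparisons use separate arrays for each line. The RAB20 call in SUM190PT was lost without the third vehicle and estradiol arrays. RAB4A changed by -0.75 and -0.73, from a dim probe set. With the drug it read 4.10 to 4.54 in SUM149PT and 5.04 to 5.18 in SUM190PT. Signal above background is not shown there, so the sizes cannot be compared closely.

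**Figure D3:**
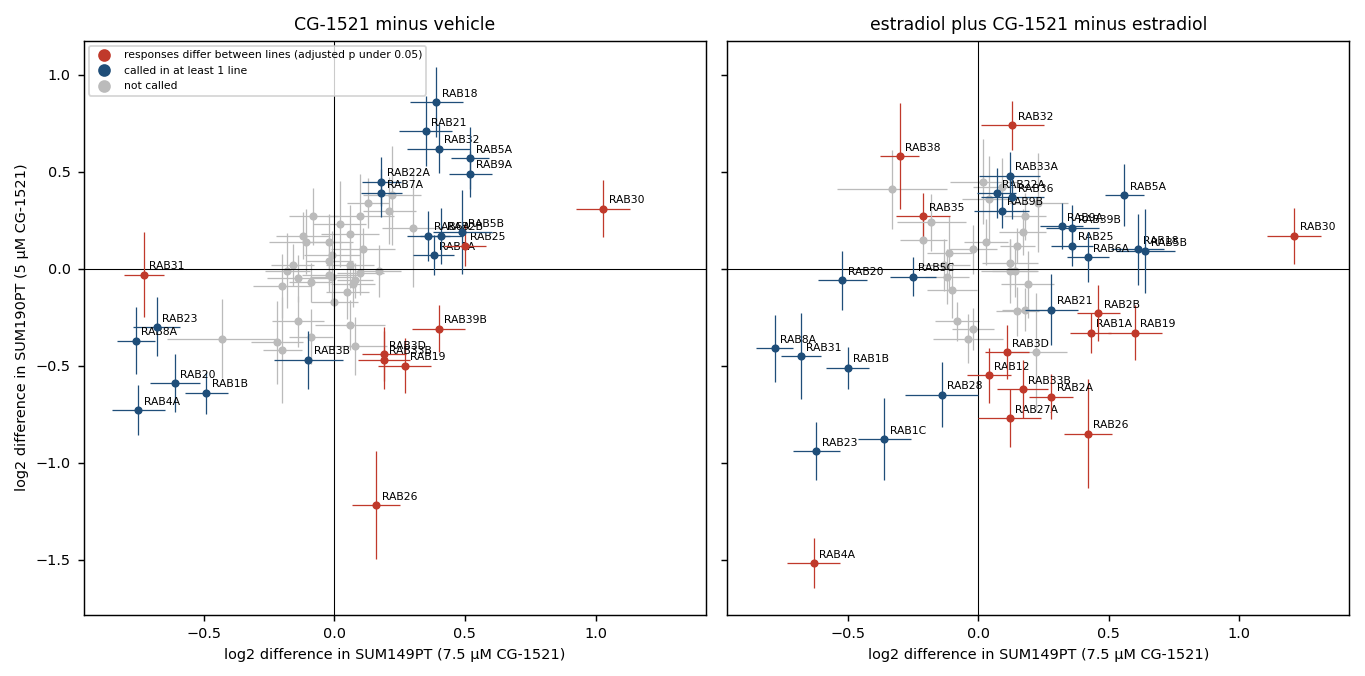
Change with CG-1521 in SUM149PT (horizontal axis) and in SUM190PT (vertical axis) for each Rab gene, without estradiol on the left and with estradiol on the right, as log2 differences with SE bars (n = 3 arrays per group). Red genes had responses that differed between the lines, blue genes were called in at least 1 line and grey genes in neither. RAB1B and RAB4A lie in the lower left of both panels, RAB30 lies to the right in both, and RAB26 lies at the lower right.

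The difference between the responses was tested directly, without estradiol, as the change in SUM149PT minus the change in SUM190PT. It passed for 8 of 60 Rab genes, 7 positive and 1 negative, when 20.6% of all genes passed, 9.01% positive and 11.6% negative. RAB26 gave the largest, 1.38 ± 0.31 (adjusted p = 0.00278). It rose by 0.16 in SUM149PT, which did not pass the test, and fell in SUM190PT. RAB19 (0.77), RAB30 (0.72), RAB39B (0.70), RAB33B (0.67), RAB3D (0.63) and RAB25 (0.37) were also positive. The RAB39B values lay between 3.16 and 4.12 in these groups, where signal above background is not shown. RAB31 was negative (-0.71), since it fell in SUM149PT and read 7.54, 7.66 and 7.99 and then 7.32, 7.78 and 8.01 in SUM190PT. The RAB25 and RAB31 calls did not hold with single arrays left out (adjusted p up to 0.101 and 0.121), and the other 6 did. Without the third SUM190PT vehicle and estradiol arrays RAB25 was also lost (adjusted p = 0.0584). Dose and medium differ with the line here as well.

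When estradiol was present in both arms, CG-1521 was followed by change in 23 Rab genes in SUM149PT, 14 up and 9 down. Over all genes 36.9% passed, 16.5% up, 20.4% down and 4.81% with at least 2-fold. With quantile normalization the Rab split was 19 up and 6 down. These arrays are separate from those without estradiol. Of the 18 genes called without the hormone, 17 (94.4%, against 82.9% over all genes) were called again in the same direction, RAB32 being the exception, and 19 of the 23 held with each array left out. RAB30 rose from 5.88, 5.69 and 6.07 to 7.11, 6.96 and 7.21 (1.21 ± 0.103; adjusted p = 1.58e-07), RAB5B by 0.64, RAB18 by 0.61 and RAB19 by 0.60. RAB8A fell by 0.78, RAB31 by 0.68, RAB4A by 0.63 and RAB23 by 0.62 on the log2 scale.

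In SUM190PT with estradiol, 17 Rab genes changed, 5 up and 12 down (25.7% of all genes passed, 12.5% up, 13.2% down and 4.89% with at least 2-fold). Of the 15 genes called without the hormone, 7 were called again, which is 46.7% against 59% over all genes. RAB4A showed the largest change of any Rab gene with CG-1521. It read 6.29, 6.5 and 6.46 with estradiol alone and 4.88, 4.86 and 4.96 with both agents, a change of -1.52 ± 0.129 (adjusted p = 2.15e-05). The values with both agents lie about where the fibroblast, leukocyte and endothelial marker medians lie. Signal above background is not shown for them, so no fold is given. The groups were separated by a gap wider than the range within either. RAB23 fell by 0.94, RAB1C by 0.88, RAB26 by 0.85 and RAB27A by 0.77 on the log2 scale, and RAB32 rose by 0.74, RAB33A by 0.48, RAB22A by 0.39 and RAB36 by 0.37. Without the third vehicle and estradiol arrays, the RAB26 change was -0.53 (adjusted p = 0.05), RAB22A (0.0515), RAB3D (0.078) and RAB9B (0.0689) did not pass, and with only the third estradiol array left out the RAB26 change was also -0.53 (adjusted p = 0.128). With each array left out, RAB1B, RAB1C, RAB23, RAB27A, RAB2A, RAB32, RAB33A, RAB33B and RAB4A kept their call. With quantile normalization, RAB33A, a dim gene, lost its call (0.34; adjusted p = 0.0639), as did RAB26 (0.0905) and RAB36 (0.111). The count was 11 without the second estradiol array, 10 without the first array of the combination and 11 without the third array of the combination, with 14.1%, 14.5% and 16.6% of all genes called.

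With estradiol present, RAB1A, RAB26 and RAB2A rose in SUM149PT and fell in SUM190PT. The difference between these responses was tested after the directions had been seen. It passed for 14 Rab genes, 11 positive and 3 negative, when 20.4% of all genes passed, 10.6% positive and 9.86% negative. It was 0.76 ± 0.12 for RAB1A (adjusted p = 8.08e-05), 0.93 ± 0.14 for RAB2A (adjusted p = 4.54e-05) and 1.27 ± 0.31 for RAB26 (adjusted p = 0.00473), and all 3 differences held with each array left out. The fall of RAB1A in SUM190PT taken alone was -0.33 ± 0.102 (adjusted p = 0.0317) and lost its call in 4 of 6 fits that left out an array, and that of RAB26 in 5 of 6. RAB1A read 11.26, 11.29 and 11.16 with estradiol and 10.89, 11.01 and 10.82 with both agents in SUM190PT. The corresponding SUM149PT arrays read 10.60, 10.53 and 10.36 and then 10.91, 10.94 and 10.92. RAB1B fell in both lines, by 0.50 in SUM149PT and 0.51 in SUM190PT on the log2 scale. RAB1B, RAB1C, RAB23 and RAB4A were the genes that fell in both lines with estradiol present. These 4 genes were 17.4% of the SUM149PT list and 23.5% of the SUM190PT list, against 27.3% and 39.2% over all genes. Opposite directions were called for 3 of 60 Rab genes and for 512 of all 18417 genes, and the Rab count is too small to compare.

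The combination was also compared with vehicle, which shares its arms with the comparisons above. In SUM149PT 21 Rab genes changed, 13 up and 8 down, and the split was 19 up and 7 down with quantile normalization. Over all genes 37.2% passed, 16.2% up, 20.9% down and 4.83% with at least 2-fold. RAB30 was 0.98 higher, RAB5A 0.58, RAB5B 0.56 and RAB39B, a dim gene, 0.55. RAB31 fell by 0.85, RAB8A by 0.77, RAB23 by 0.74 and RAB4A by 0.66 on the log2 scale. In SUM190PT 9 Rab genes changed, 4 up and 5 down (13.4% of all genes passed, 6.62% up, 6.77% down and 3.48% with at least 2-fold), and the split was 5 up and 4 down with quantile normalization. RAB4A fell by 0.94, RAB26 by 0.93, RAB33B by 0.63 and RAB27A by 0.60, and RAB18 rose by 0.65, RAB5A by 0.64, RAB32 by 0.55 and RAB7A by 0.41. Of these, RAB1B and RAB4A kept their call with each array left out, and no other Rab gene was called without the first array of the combination (6.8% of all genes). The RAB7A change was 0.16 when its bright and its dim probe set were averaged (adjusted p = 0.622).

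**Figure D4:**
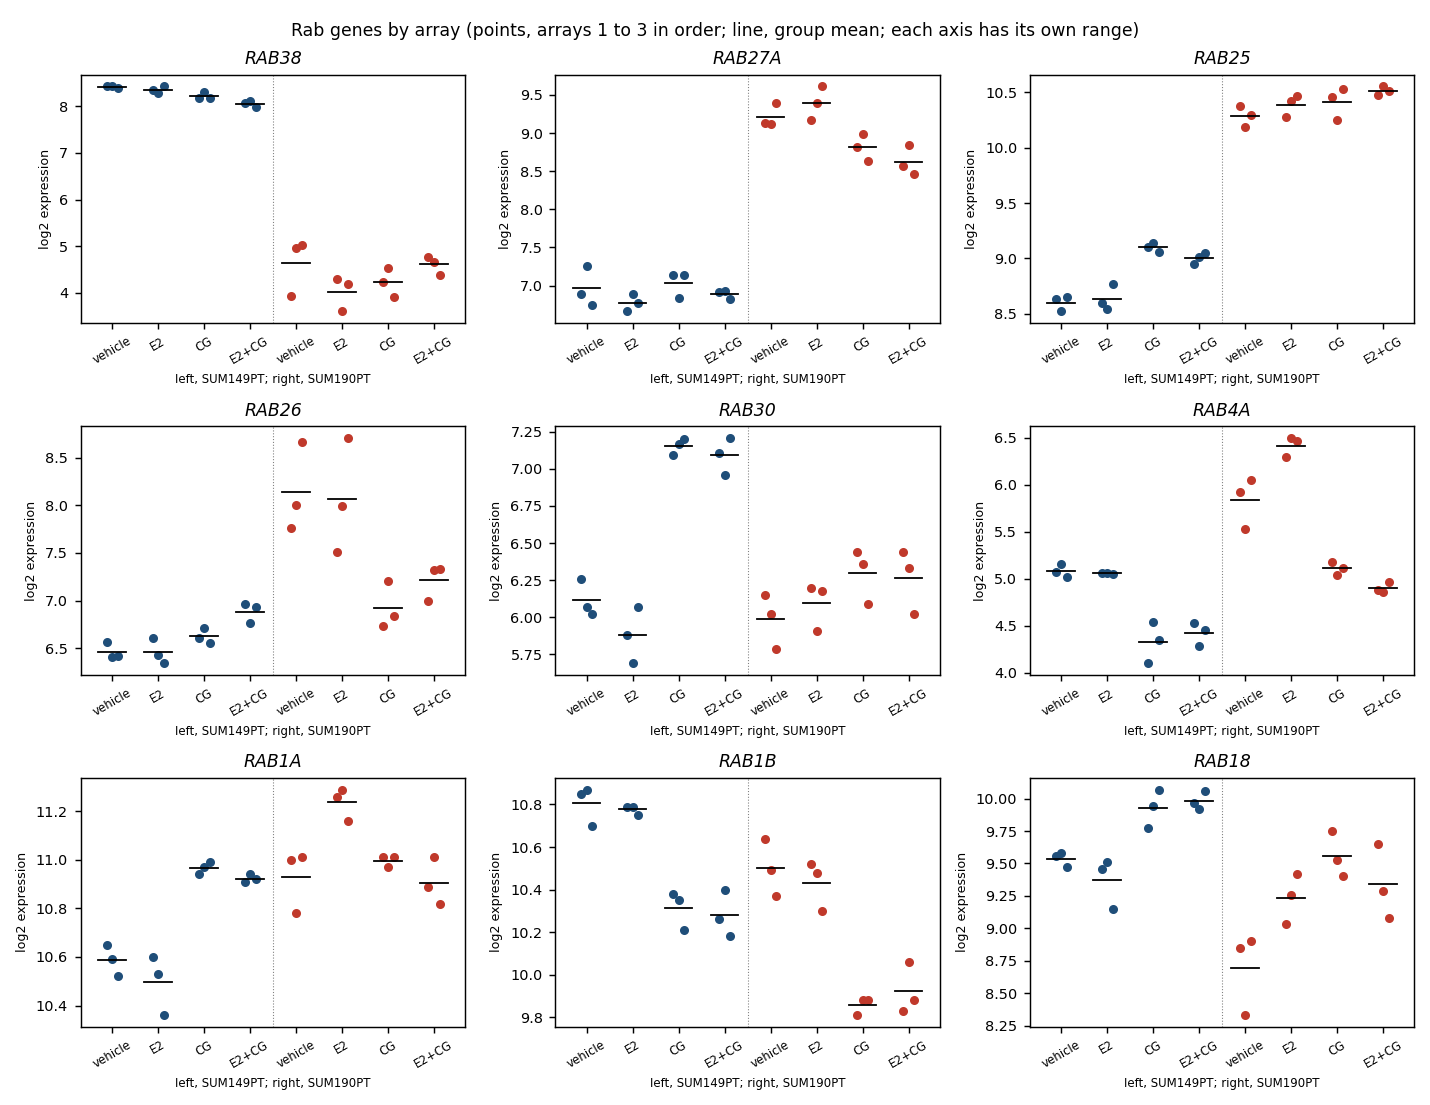
Log2 expression of 9 Rab genes on each array. Points are arrays, SUM149PT in blue and SUM190PT in red, short lines are group means, E2 is estradiol, CG is CG-1521, and each panel has its own vertical range. RAB4A falls with CG-1521 in both lines and lies highest in SUM190PT with estradiol, RAB30 rises in SUM149PT, and RAB1A and RAB1B move apart in SUM149PT.

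Estradiol alone was followed by no called Rab gene in SUM149PT (limma; 0% of all genes passed), where 3 Rab genes and 845 of all genes had an unadjusted p below 0.05. In SUM190PT no Rab gene passed either (0.00543% of all genes, a single gene, passed), with 14 Rab genes and 4531 of all genes below the unadjusted threshold. There the vehicle and estradiol arrays of the same replicate number deviated together, and with the replicate number as a block 3 Rab genes passed and 519 of all genes (2.82%). RAB4A rose by 0.58 ± 0.126 (adjusted p = 0.0442), RAB21 by 0.65 ± 0.147 (adjusted p = 0.0469) and RAB23 by 0.65 ± 0.146 (adjusted p = 0.0466). RAB4A read 5.92, 5.53 and 6.05 in vehicle and 6.29, 6.5 and 6.46 with estradiol, without overlap. Without the first vehicle array 7 Rab genes passed without a block: RAB10, RAB21, RAB23, RAB28 and RAB4A higher, and RAB38 and RAB39B lower. In that fit 12.3% of all genes passed. Signal above background is not shown for RAB38 or RAB39B in SUM190PT.

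Adding estradiol to CG-1521 changed no Rab gene in either line (limma; 0% of all genes passed in each). Unadjusted p was below 0.05 for 4 Rab genes and 1156 of all genes in SUM149PT and for 3 and 889 in SUM190PT. Blocking by replicate left the Rab count at 0. The interaction of the agents passed for no Rab gene in SUM149PT (0% of all genes) or in SUM190PT (0.516% of all genes, 0.201% with at least 2-fold), with 1 and 15 Rab genes below the unadjusted threshold. The RAB4A interaction in SUM190PT was -0.79 ± 0.183 (adjusted p = 0.0612) and that of RAB21 -0.91 ± 0.256 (adjusted p = 0.0797). Without the first vehicle array, 8 Rab genes passed the interaction test in SUM190PT, with 8.99% of all genes.

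The proteins that act on Rabs were measured on the same arrays, as lists of 6 genes for prenylation and the membrane cycle, 29 GEFs, 28 GAPs and 43 effectors. In the vehicle comparison, 11 effectors were higher and 18 lower in SUM149PT, with a median of -0.26 (24.5% of all genes were higher and 22.1% lower). The RAB27 effectors, singled out after their values were seen, were mixed. SYTL2 was 4.57 in SUM149PT and 9.28 in SUM190PT (-4.72 ± 0.273), MLPH (melanophilin) differed by -2.26 ± 0.16, RPH3AL by -0.96, SYTL4 by -0.69, SYTL5 by -0.64 and SYTL1 by -0.49. UNC13D was 0.93 ± 0.114 higher in SUM149PT, and SYTL3, MYRIP and EXPH5 did not pass the test. The vesicle motor MYO5C differed by -2.98 ± 0.103. OPTN, a RAB8 effector, was 2.17 ± 0.149 higher in SUM149PT, where RAB8A was higher and RAB8B lower. Among GEFs, 13 were higher and 8 lower, with DENND2D at -4.30 ± 0.188 and DENND2B at 1.71. In SUM149PT vehicle SYTL2, SYTL5 and DENND2D averaged 4.57, 3.10 and 4.90, and SYTL5 averaged 3.74 in SUM190PT. Signal above background is not shown at these values. Among GAPs, 7 were higher and 12 lower, from TBC1D20 (-1.52) to TBC1D1 (1.79). Of the prenylation genes, CHML (1.14), GDI2 and RABGGTB were higher and RABAC1 was lower.

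With CG-1521 in SUM149PT, 12 effectors rose and 9 fell, 7 GEFs rose and 8 fell, 6 GAPs rose and 4 fell, and of the prenylation genes RABAC1 rose (1.25 ± 0.144) and CHML fell (-0.85 ± 0.101). The larger changes were those of the GEF DENND2C (2.03 ± 0.158), the late endosome effector PLEKHM1 (1.33 ± 0.121), EXPH5 (-1.17 ± 0.139), a RAB27 effector, and DENND2B (-1.09 ± 0.112). DENND2C averaged 4.18 in vehicle and EXPH5 4.92 with the drug, where signal above background is not shown. In SUM190PT, 9 effectors rose and 3 fell, 7 GEFs rose and 2 fell, 5 GAPs rose and 2 fell, and RABGGTA, a subunit of the prenyl transferase, fell (-0.50). RAB11FIP1, an effector of RAB11 and RAB25, rose by 1.36 ± 0.222, OPTN by 1.33 ± 0.187, the GAP TBC1D15 by 1.12 ± 0.141 and RABGEF1, an activator of RAB5, by 0.78 ± 0.13. TBC1D15 and the GAP EVI5 rose in both lines, by 0.78 and 0.91 in SUM149PT and by 1.12 and 0.76 in SUM190PT. The share of genes called in these lists can be read against the 34.3% and 16.6% of all genes called in the same comparisons.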

How the data were processed

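Gene expression was measured on Affymetrix HuGene-1_0 arrays. The deposited values are log2 expression per probe set, made by the authors with RMA in Affymetrix Expression Console, per the submitters' processing notes. It is not given in the sources used here if the arrays of both lines went through RMA as a single set. Of 33297 probe sets, 19460 named a single symbol, 1754 named several and 12083 had no entry in the platform annotation. The highest-mean probe set per symbol gave 18417 genes. All 60 Rab genes matched RefSeq by gene ID, and 5 further Rab probe sets that named several genes were left out.

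Contrasts were fitted with limma 3.58.1 in R 4.3.3 (lmFit, eBayes), on the 12 arrays of a line within lines and on all 24 arrays between lines, with Benjamini-Hochberg adjustment over all genes and a threshold of 0.05. Tables were made with Python 3.11.15. No filter on low values was used. The number of arrays limits the precision. On simulated data, 62% of genes changed by 0.5 on the log2 scale were recovered for CG-1521 in SUM149PT and 22% in SUM190PT. There 100 genes changed by 0.5 and 100 by 1, of 18417, a far smaller share than the 34.3% and 16.6% called in the data. The adjusted threshold depends on that share, so these rates do not give the sensitivity of the comparisons reported. P-values measure the spread between the 3 independent experiments named in the design. Replicates of a group correlated at 0.9946 to 0.9960 in SUM149PT and 0.9807 to 0.9957 in SUM190PT. Deviations of same-numbered arrays correlated at 0.443, 0.229 and 0.729 for vehicle and estradiol in SUM190PT, and at 0.518, 0.434 and 0.502 for CG-1521 and the combination there, so that numbers pair the arrays in these comparisons, a pairing read from the data. In the other comparisons they did not.

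Alternatives were a replicate block, other sets of arrays, quantile normalization, median centring, removal of the dimmer genes, averaging of several probe sets and each array left out. The test of the response difference with estradiol was chosen after seeing the data. Genes were named by rank of change, 8 in each direction for CG-1521 in each line and for the lines in vehicle and 4 elsewhere, among those called with groups that did not overlap. Named beside them are genes of a looked-up list and of each role group. The members, roles and pathway lists were chosen with earlier results of these data known.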

Additional observations from a re-analysis of the deposited data

Results flagged for a closer look

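The response to CG-1521 without estradiol, taken as the change in SUM149PT minus the change in SUM190PT, differed between the lines by limma for 8 Rab genes. The log2 differences were 1.38 for RAB26, 0.77 for RAB19, 0.72 for RAB30, 0.70 for RAB39B, 0.67 for RAB33B, 0.63 for RAB3D, 0.37 for RAB25 and -0.71 for RAB31. RAB26 without the third SUM190PT vehicle and estradiol arrays was 1.12 (adjusted p = 0.000389). Signal above background is not shown for RAB39B in these groups.

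With estradiol in both arms the same difference passed for 14 Rab genes, and 10 of them held with each array left out. The values were 1.27 for RAB26, 1.05 for RAB30, 0.93 for RAB19, 0.93 for RAB2A, 0.89 for RAB27A, 0.88 for RAB4A, 0.79 for RAB33B, 0.76 for RAB1A, 0.70 for RAB2B, 0.58 for RAB12 and 0.54 for RAB3D on the positive side. RAB38 (-0.88), RAB32 (-0.61) and RAB35 (-0.48) were on the negative side. Signal above background is not shown for RAB38 in SUM190PT. The calls for RAB32, RAB35, RAB38 and RAB3D were lost with some single arrays left out, and that for RAB35 also without the third SUM190PT vehicle and estradiol arrays together. RAB26, RAB19, RAB30, RAB33B and RAB3D passed with and without estradiol. RAB4A was positive because it fell by more in SUM190PT. Signal above background is not shown for RAB4A with both agents in either line.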

How the results depend on the processing

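No named gene reversed its direction under any alternative. Of the single-gene checks, 1090 stayed on the same side of the threshold and 116 fell short of it. Comparisons in SUM149PT and between the lines kept counts within 1.5 times of those reported. With single arrays left out, Rab counts in SUM190PT ranged from 4 to 14 for CG-1521, 0 to 7 for estradiol, 2 to 8 for the combination against vehicle, 10 to 18 for the combination against estradiol and 0 to 8 for the interaction. Fitting all 24 arrays at once gave 10 Rab genes for estradiol, 16 for the combination against vehicle, 27 for the combination against estradiol and 12 for the interaction in SUM190PT, with 16.2%, 23%, 38.3% and 13.8% of all genes. The replicate block gave 3 for estradiol in SUM190PT and, apart from this, kept every other count within 1.5 times, with 15 for CG-1521 in SUM190PT, 18 becoming 20 in SUM149PT and 17 becoming 21 for the combination against estradiol in SUM190PT. The causes were not tested. Median centring shifted the median gene by -0.11 in the SUM190PT interaction. Dim probe sets limit 19 of the 60 genes.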

Other observations

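A probe set naming both RAB34 and NARR, and so outside the 60 genes, read 8.19 ± 0.14 (SD, n = 3) in SUM149PT vehicle and 5.06 ± 0.119 in SUM190PT vehicle. With CG-1521 it read 7.67 ± 0.0559 in SUM149PT and 4.65 ± 0.257 in SUM190PT. The second probe set of RAB13 read 8.49 ± 0.106 in SUM149PT vehicle and 7.84 ± 0.317 in SUM190PT vehicle, which has the direction of the brighter one used above.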
